A study of Homo sapiens with 15 samples.

Results

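AsPC-1, a human pancreatic ductal adenocarcinoma cell line, was transfected with an siRNA against B3GNT3 (siB3GNT3) or with a control siRNA (siNC), and the mRNA of both groups was compared across all genes. The comparison takes 6 of the 15 RNA-seq libraries of the series, chosen by their labels: 3 of AsPC-1 siB3GNT3 and 3 of AsPC-1 siNC. For context, 3 AsPC-1 libraries with an siRNA against B4GALT5 (siB4GALT5) and 3 libraries each of siNC and siB3GNT3 in Capan-1, a second pancreatic ductal adenocarcinoma line, were read beside it. The series asks how both glycosyltransferases bear on MHC class I of tumour cells and the CD8 T cell response. The labels give no genetic change, no drug, no siRNA dose and no harvest time, and do not state whether a group's libraries stem from independent cultures. The p-values below therefore refer to variation among the sequenced libraries, which may be technical. Each group is a transient knockdown in 1 line, and the labels do not say how many siRNA duplexes were used per target.

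B3GNT3 encodes a Golgi enzyme that adds N-acetylglucosamine in beta-1,3 linkage to core 1 O-glycans, the sugar chains that start with N-acetylgalactosamine on serine or threonine. The extended core 1 arm can carry poly-N-acetyllactosamine, sialyl Lewis x and sulfated selectin ligands, on mucins and on other membrane proteins of secretory epithelia. An siRNA works by guiding the RNA-induced silencing complex to a matching mRNA.

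The target fell in only part of its group. B3GNT3 (chr19:17794828-17813082, plus strand, GRCh38) stood at 22.5, 23.8 and 23.3 FPKM in siNC replicates 1, 2 and 3, at 2.53 and 2.50 FPKM in siB3GNT3 replicates 1 and 2, and at 24.2 FPKM in the library labelled siB3GNT3 replicate 3. Replicates 1 and 2 lay far below every control, whereas the library labelled replicate 3 lay above all 3 of them, so the labelled groups overlap. Over the labelled groups the mean difference was -1.84 on log2(FPKM + 1), with an exact two-sided permutation p of 0.4 where the smallest p for 3 against 3 libraries is 0.1. The target therefore goes against the label of 1 library, and every comparison was made both with all 3 libraries and with that library set apart. No p is given for B3GNT3 itself in the second form, since that library was singled out by this gene.

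That library also sat with the controls across the transcriptome. Its root mean square log2 difference from the 3 siNC libraries was 0.141 to 0.149, any 2 siNC libraries were 0.143 to 0.146 apart, and replicates 1 and 2 differed from each other by 0.150 and from siNC by 0.471 to 0.487. Tested alone against siNC with limma, replicates 1 and 2 gave 4071 and 4326 called genes, while the library labelled replicate 3 gave 0 by adjusted p and 151 by an unadjusted p under 0.05. A gene was called when its adjusted p was under 0.05. Of the 435 genes that were called with this library set apart and changed at least 2-fold, 435 lay nearer the siNC mean than the mean of replicates 1 and 2 in it. Called genes whose value in it fell inside the siNC range numbered 3016 of 5697.

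**Figure D1:**
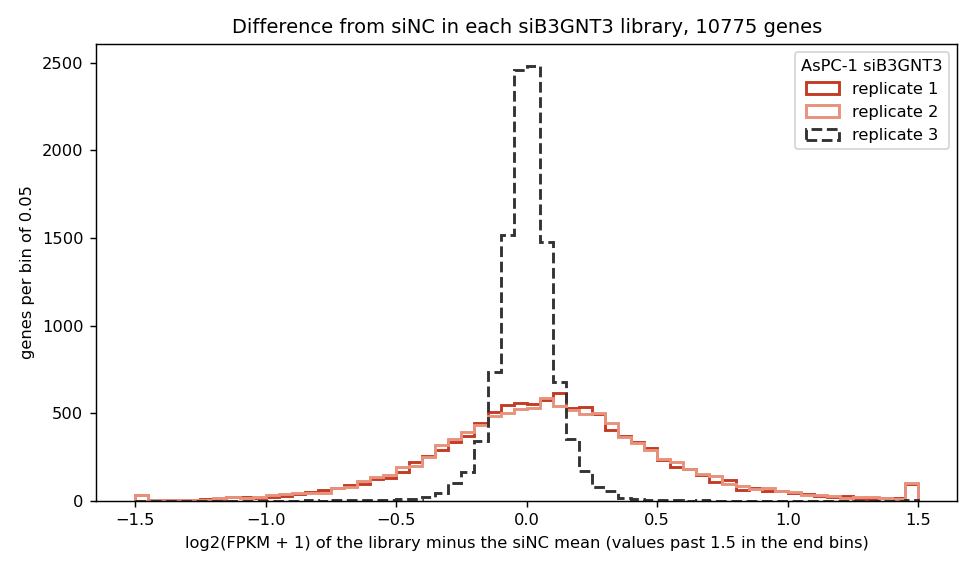
Distribution over 10775 genes of the difference between each AsPC-1 siB3GNT3 library and the siNC mean, in log2(FPKM + 1), as genes per bin of 0.05. Replicates 1 and 2 share a wide distribution, and the library labelled replicate 3 forms a narrow peak around 0.

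The table held FPKM for 25503 genes, and 10339 to 10631 genes per library of this comparison reached 1 FPKM. FPKM carry no counts, so the read depth behind each value is unknown and no counting interval can be given. Of the markers of pancreatic ductal cancer cells, 6 of 10 reached the filter for testing, with KRT18 at 641, 632 and 654 FPKM in siNC. KRT7, CDH1, CEACAM5 and CEACAM6 did not reach it in AsPC-1, while all 10 were tested in Capan-1. None of the 8 endothelial and none of the 10 acinar or islet markers reached the filter in AsPC-1. CD68 was the 1 of 10 leukocyte markers that did, at 39.7, 38.8 and 40.6 FPKM in siNC and 51.4 and 52.2 FPKM in siB3GNT3 replicates 1 and 2 (log2 fold change 0.38, called), and LUM was the 1 of 10 fibroblast markers, at 79.5, 91.8 and 85.3 FPKM in siNC. The pan-leukocyte gene PTPRC and the collagen gene COL1A1 stayed under 1 FPKM in each of the 6 libraries. Mitochondrially encoded mRNAs held 23.8% to 24.8% of all FPKM in siNC, 20.1% and 19.7% in siB3GNT3 replicates 1 and 2, and 24.3% in the library labelled replicate 3. In bulk RNA a change in the number of cells of a kind and a change in RNA per cell cannot be told apart.

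With all 6 libraries as labelled, in a fit that also held the 3 siB4GALT5 libraries, limma called 0 of 10804 genes (0%). The smallest adjusted p was 0.126, and 3011 genes (27.9%) had an unadjusted p under 0.05. With only the 6 libraries in the fit, limma called 0 of 10504 genes, and the smallest adjusted p was 0.251. The labelled groups did not overlap for 2021 genes (18.7%). With the library labelled replicate 3 set apart, 5697 of 10775 genes were called (52.9%), of which 3504 were higher (32.5%) and 2193 lower (20.4%) than siNC. That split follows the scaling: 61.5% of calls were higher on FPKM as deposited, 51.0% after median-ratio scaling and 72.2% after rescaling to a common sum. On this scale 69.2% of the calls were under 1.5-fold. Rises of at least 2-fold were called for 308 genes (2.86%) and falls of that size for 127 (1.18%), and at least 4-fold for 21 (0.195%) and 5 genes (0.0464%). The 435 genes past 2-fold depend on the pseudocount of 1, and with a pseudocount of 0.1 they were 805. Unless stated otherwise, the fold changes below compare replicates 1 and 2 with the 3 siNC libraries on log2(FPKM + 1), a scale on which changes of weakly expressed genes look smaller than they are, and no gene named was called with all 6 libraries. The median log2 fold change of all genes tested was 0.07, which is the value to read list medians against. Counts of list members called are likewise to be read against 32.5% higher and 20.4% lower among all genes.

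Among the enzymes nearest to the target, most tested members of its own family were lower. B3GNT3 aside, 5 other members of the B3GNT family were tested, and 4 of them were called, all lower. B3GNT9 fell by 0.63 (SE 0.12, adjusted p = 0.00221), B3GNT5, which starts lacto-series glycolipids, was at -0.58 and B3GNT2, the main polylactosamine synthase, at -0.52. The call of B3GNT2 (adjusted p = 0.0156) ends when siB3GNT3 replicate 1 (adjusted p = 0.0540) or replicate 2 (0.0958) is left out. The fourth was B4GAT1, which adds glucuronic acid to the glycan of dystroglycan and fell by 0.39. B3GNTL1 stood at a log2 fold change of 0.18 with an adjusted p of 0.111.

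B4GALT1, the galactosyltransferase that makes N-acetyllactosamine and pairs with B3GNT enzymes to build polylactosamine, moved the other way. Its level was 18.9, 20.2 and 21.1 FPKM in siNC, 72.3 and 71.6 FPKM in replicates 1 and 2 and 19.4 FPKM in the library labelled replicate 3. The first 2 siB3GNT3 libraries exceeded every control by more than 3-fold, and the third lay among the controls (log2 fold change 1.79, SE 0.056, adjusted p = 1.05e-07). Of 10 beta-galactosyltransferases tested, 3 were higher (against 32.5% of all genes) and 0 lower, the others called being B4GALT2 at 0.43 and B4GALT4 at 0.42 (7 were higher after rescaling to a common sum). B4GALT5 itself, the target of the other siRNA, was at -0.097 (adjusted p = 0.227).

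Enzymes of O-glycan initiation, branching and capping leaned lower. Of 11 O-glycan core enzymes, 1 rose and 5 fell (median -0.21), among them the initiating GalNAc transferases GALNT6 (-0.67) and GALNT2 (-0.46). C1GALT1, which makes the core 1 disaccharide that B3GNT3 extends, was at 0.16 and not called (adjusted p = 0.543). Of 9 sialyl, fucosyl and sulfo transferases, 1 of them under 1 FPKM in every siNC library, 1 rose and 3 fell. ST6GALNAC4, which sialylates core 1, fell from 37.3, 43 and 35.8 FPKM in siNC to 14.6 and 16.4 FPKM in replicates 1 and 2, against 40.5 FPKM in the library labelled replicate 3 (log2 fold change -1.26, SE 0.099, adjusted p = 1.09e-05). In the glycosphingolipid pathway 2 of 13 enzymes rose (4 after rescaling to a common sum) and 5 fell, with B4GALNT1, the synthase of GM2 and GD2, falling from 15.3, 16.1 and 14.8 to 4.81 and 5.12 FPKM (log2 fold change -1.46, adjusted p = 1.19e-06). Of 14 mucin genes 2 reached the filter, and MUC1 (0.36) and MUC13 (0.28) were both called higher, MUC1 with an adjusted p of 0.0815 once siB3GNT3 replicate 2 is left out.

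**Figure D2:**
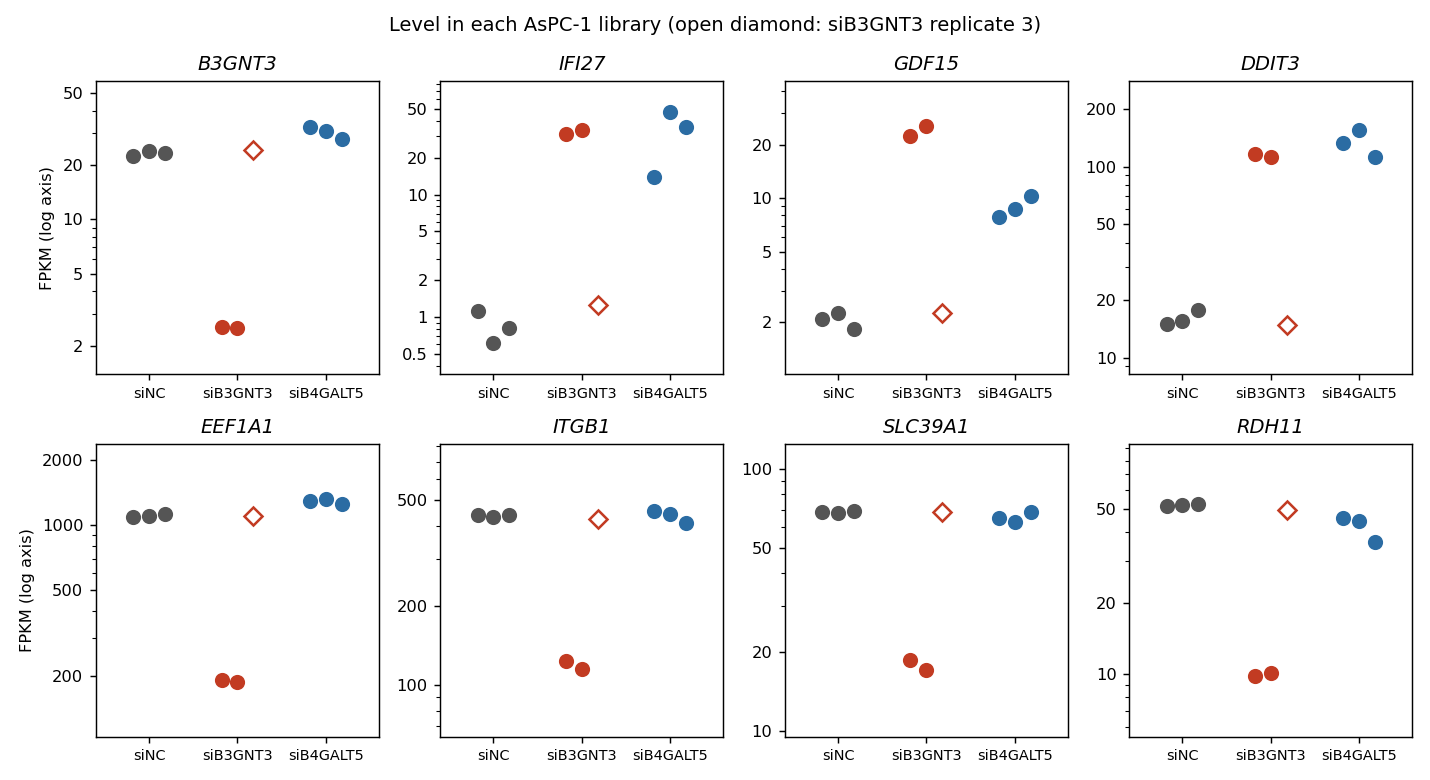
FPKM on log axes in each of the 9 AsPC-1 libraries for the target and 7 genes among the largest changes. Filled points are single libraries, and the open diamond is the library labelled siB3GNT3 replicate 3, which lies beside the siNC libraries in all 8 panels.

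Interferon-stimulated genes were among the largest rises. They encode antiviral proteins and are switched on when STAT or interferon regulatory factors bind an interferon-stimulated response element in the promoter. That element was searched for as GAAA, 2 bases of any kind and GAAA again, on both strands, overlaps allowed, in the 250 bases before and 50 bases after the start of 27305 RefSeq promoters (GRCh38.p14). It was present in 996 promoters (3.65%), in 247 of 8731 promoters of genes tested (2.83%) and in 21 of the 31 promoters found for the 37 interferon-stimulated genes tested (67.7%). The stretches below, each read 5′ to 3′ in the direction of transcription with the matches in capitals, come from 4 genes described next: IFI27 (chr14:94110613-94110665, plus strand), IFI6 (chr1:27672261-27672363, minus strand), ISG15 (chr1:1013369-1013414, plus strand) and IFIT1 (chr10:89392492-89392544, plus strand).
IFI27: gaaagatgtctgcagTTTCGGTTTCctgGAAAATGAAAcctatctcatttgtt
IFI6: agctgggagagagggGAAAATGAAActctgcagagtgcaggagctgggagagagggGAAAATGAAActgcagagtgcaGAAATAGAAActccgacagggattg
ISG15: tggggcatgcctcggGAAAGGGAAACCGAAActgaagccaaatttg
IFIT1: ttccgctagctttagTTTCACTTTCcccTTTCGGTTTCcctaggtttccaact
The 2 matches of ISG15 overlap, those of IFIT1 are on the other strand and so begin and end with TTTC, IFI27 holds 1 of each orientation, and IFI6 holds 3. A match is a description of these letters and not a measurement of binding.

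IFI27, a membrane protein gene used as a marker of type I interferon, rose the most of all genes tested on this scale. It stood at 1.12, 0.618 and 0.811 FPKM in siNC, at 30.9 and 33.5 FPKM in siB3GNT3 replicates 1 and 2, and at 1.26 FPKM in the library labelled replicate 3. Replicates 1 and 2 were more than 20-fold above every control and the third library was just outside the control range (log2 fold change 4.17, SE 0.39). Among the controls only siNC replicate 1 reached 1 FPKM, so IFI27 passed the filter through siRNA libraries in which it was high. IFI6, whose product protects cells from death and from flaviviruses, went from 24.5, 18 and 21.8 FPKM to 156 and 149.7 FPKM, with 28.6 FPKM in the library labelled replicate 3 (log2 fold change 2.79, SE 0.19, adjusted p = 5.05e-06). RSAD2, the viperin gene, went from 1.31, 1.27 and 1.00 FPKM to 13.6 and 14 FPKM (log2 fold change 2.75, SE 0.18, adjusted p = 4.33e-06). Its neighbours in size were IFIT2, which senses viral RNA ends with its paralogues, at 2.27 and IFI44L at 2.17.

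Across the list, 34 of 37 interferon-stimulated genes tested were called higher and 0 lower, against 32.5% higher among all genes, with a median log2 fold change of 1.21 and a range of 0.13 to 4.17. With all 3 siB3GNT3 libraries as labelled, 32 of the 37 had an unadjusted p under 0.05 (27.9% of all genes did) and the median was 0.82. In the library labelled replicate 3 alone the list median was 0.033. Of 43 listed genes 6 were too low to test, and 1 of those tested was under 1 FPKM in every siNC library. The 3 tested and not called were GBP1, GBP2 and IFITM2, of which the guanylate-binding proteins are better known as targets of interferon gamma. Well-known antiviral genes were among the risers, with OASL at 1.53, ISG20 at 1.71, ISG15 at 1.71 and IFIT1 at 1.94.

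Among genes known to act upstream of these, interferon lambda 1 and the RNA sensors were higher. IFNL1, a type III interferon that acts mainly on epithelial cells, was at 0.164, 0.0331 and 0.260 FPKM in siNC, at 3.91 and 4.14 FPKM in replicates 1 and 2 and at 0.131 FPKM in the library labelled replicate 3. It was near 0 in the controls and in that library, and its test rests on the libraries in which it was high. Of 6 tested genes for interferons and their receptors, IFNL1 among them, 5 were higher, including IFNGR2, a chain of the interferon gamma receptor (log2 fold change 0.99, SE 0.076, adjusted p = 9.8e-06). IL10RB, the shared chain of the interferon lambda receptor, was at -0.18 (adjusted p = 0.425).

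IFIH1, which encodes the double-stranded RNA sensor MDA5, stood at 7.05, 7.69 and 7.32 FPKM in siNC, 31.5 and 29.7 FPKM in replicates 1 and 2, and 7.29 FPKM in the library labelled replicate 3 (log2 fold change 1.92, SE 0.065, adjusted p = 1.39e-07). DHX58 (LGP2) rose by 1.68 and DDX58 (RIG-I) by 1.12. Among 14 nucleic acid sensors and adaptors 9 were higher and 2 lower (1 after rescaling to a common sum), and the 2 lower ones were adaptors. STING1, the adaptor of DNA sensing, fell from 19, 17.5 and 19.6 to 12.8 and 13.5 FPKM (log2 fold change -0.47, adjusted p = 0.000469), and MAVS, the mitochondrial adaptor of RIG-I and MDA5, fell by 0.26 (adjusted p = 0.0466). Leaving out any 1 of the siNC libraries, either siB3GNT3 library or siB4GALT5 replicate 1 ends the call of MAVS, with adjusted p from 0.0519 to 0.176.

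Of 16 interferon regulatory factor and JAK-STAT genes, 7 were higher and 0 lower, against 32.5% higher and 20.4% lower among all genes. The list median was 0.17. After median-ratio scaling 6 were higher and 1 lower, and after rescaling to a common sum 9 and 0. IRF7 rose by 1.65, USP18, which restrains the interferon receptor, by 1.48, and IRF9 by 1.27. STAT2, which works with IRF9, was at 0.064 (adjusted p = 0.661).

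MHC class I mRNA was higher by less. MHC class I molecules show peptides to CD8 T cells, and each pairs a heavy chain with beta-2 microglobulin. HLA-B stood at 57.7, 57.7 and 67 FPKM in siNC, 90.7 and 90.4 FPKM in replicates 1 and 2, and 61 FPKM in the library labelled replicate 3 (log2 fold change 0.57, SE 0.12, adjusted p = 0.00336). The first 2 libraries were above every control and the third was within the control range. HLA-E, the ligand of NKG2A on NK and T cells, rose by 0.34, HLA-F by 0.33 (adjusted p = 0.03) and HLA-C by 0.19 (adjusted p = 0.0432). The call of HLA-C ends when any 1 siNC or siB3GNT3 library is left out, with adjusted p from 0.0673 to 0.207, and that of HLA-F when any of them but siNC replicate 3 is left out, with adjusted p from 0.0834 to 0.129. Of 6 class I chain genes tested 5 were higher and 0 lower, a count that was 3 after median-ratio scaling and 6 after rescaling to a common sum. B2M was at 244, 245 and 264 FPKM in siNC and 292 and 269.8 FPKM in replicates 1 and 2, a difference that was not called (log2 fold change 0.16, adjusted p = 0.145). Class I genes are similar in sequence and differ between cell lines, so that counting could share reads among them.

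Of 16 genes for class I peptide processing 8 were higher and 0 lower (median 0.20; 7 and 2 after median-ratio scaling). ERAP1, which trims peptides in the endoplasmic reticulum, rose by 0.89 (SE 0.15, adjusted p = 0.000862), the peptide transporter gene TAP1 by 0.70 and the immunoproteasome subunit gene PSMB8 by 0.36. The standard proteasome moved the other way, with 0 of 26 subunit genes higher and 16 lower (median -0.27; 13 were lower and 2 higher after rescaling to a common sum). Of 14 tested regulators of class I, IRF1 rose by 0.87 and the autophagy receptor genes NBR1 and SQSTM1 by 0.76 and 0.72, whereas MARCHF4, which encodes a ubiquitin ligase that can send class I to lysosomes, fell by 0.99. In all, 6 of the 14 were higher and 4 lower, beside 32.5% higher and 20.4% lower among all genes.

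The integrated stress response formed the second group of large rises. In this response kinases that sense stress phosphorylate eIF2, general translation falls, and ATF4 and its partners switch on genes for amino acid supply, redox balance and, when stress lasts, cell death. The amino acid response element bound by ATF4 was searched for as TGATGNAA on both strands. It was present in 1003 of 27305 promoters (3.67%), in 139 of 8731 promoters of genes tested (1.59%) and in 3 of the 17 promoters found for the 21 tested genes of the ATF4 list (17.6%). These 3 belong to ATF3 (chr1:212565201-212565238, plus strand), CHAC1 (chr15:40953247-40953284, plus strand) and ASNS (chr7:97872454-97872491, minus strand), shown in the direction of transcription with the match in capitals (GRCh38.p14, RefSeq).
ATF3: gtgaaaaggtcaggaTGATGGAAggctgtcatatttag
CHAC1: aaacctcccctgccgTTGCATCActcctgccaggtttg
ASNS: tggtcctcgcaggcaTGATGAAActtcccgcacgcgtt
The match in CHAC1 lies on the other strand. The remaining 14 promoters hold no such letters in this window, from which nothing follows about the factor.

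DDIT3, which encodes the pro-apoptotic factor CHOP, stood at 15, 15.6 and 17.8 FPKM in siNC, 117 and 112 FPKM in replicates 1 and 2, and 14.8 FPKM in the library labelled replicate 3. Both low-B3GNT3 libraries exceeded every control by more than 6-fold and the other was below the control range (log2 fold change 2.76, SE 0.12, adjusted p = 7.22e-07). PPP1R15A (GADD34), which restores eIF2 to its active form, went from 14.4, 14.3 and 14.1 to 105 and 111 FPKM (log2 fold change 2.84, SE 0.13, adjusted p = 8.32e-07). GDF15, a secreted stress hormone, went from 2.08, 2.27 and 1.83 to 22.5 and 25.4 FPKM, with 2.25 FPKM in the library labelled replicate 3 (log2 fold change 3.03, SE 0.11, adjusted p = 2.87e-07).

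Of 21 tested genes of the ATF4 list 20 were higher and 0 lower, against 32.5% of all genes, with a median of 1.11 and a median of -0.011 in the library labelled replicate 3. With all 3 libraries as labelled, 18 of the 21 had an unadjusted p under 0.05 and the median was 0.74. ATF4 itself rose by 1.03, the pseudokinase gene TRIB3 by 2.45, ATF3 by 2.32, VEGFA by 1.88, CHAC1, which degrades glutathione, by 1.11, and ASNS, which makes asparagine, by 0.93. The one not called was SHMT2 (0.12, adjusted p = 0.165), which makes glycine and folate-bound carbon in mitochondria. Of the 21, 2 were under 1 FPKM in every siNC library.

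Amino acid supply genes followed. Of 11 amino acid transporter genes tested 11 were called higher (median 0.56; 10 after median-ratio scaling), and 1 of them was under 1 FPKM in every siNC library and passed the filter through libraries of other groups. The list was led by SLC1A4 (1.10) and SLC1A5 (1.08), which carry neutral amino acids, and by SLC3A2, the shared heavy chain of several transporters, at 177, 178 and 183 FPKM in siNC and 355 and 356 FPKM in replicates 1 and 2 (log2 fold change 0.99, adjusted p = 8.12e-06). Of 20 cytosolic aminoacyl-tRNA synthetases 13 were higher and 1 lower. SARS1 rose by 1.05, GARS1 by 0.92 and WARS1 by 0.91, and QARS1, the glutaminyl enzyme, fell by 0.27 (adjusted p = 0.0509 without siB3GNT3 replicate 2).

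Chaperone genes moved in both directions. Of 21 genes for chaperones of the endoplasmic reticulum and XBP1 targets 11 were higher and 4 lower, with XBP1, the factor spliced by IRE1, going from 48.9, 47.8 and 48.8 to 136 and 142 FPKM (log2 fold change 1.50, SE 0.094, adjusted p = 3.75e-06) and HSPA5 (BiP) rising by 0.81. The 4 lower ones were PDIA4 (-0.46), PDIA6 (-0.26), SDF2L1 (-0.58) and DNAJC3 (-0.31), the last with an adjusted p of 0.0689 without siB3GNT3 replicate 1. Heat shock genes of the cytosol and mitochondria went the other way: 0 of 13 were higher and 9 lower (2 were higher and 8 lower after rescaling to a common sum), with BAG3, the co-chaperone of HSP70, falling from 38.2, 37.1 and 35.9 to 14.2 and 15.3 FPKM (log2 fold change -1.27, adjusted p = 9.41e-06).

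**Figure D3:**
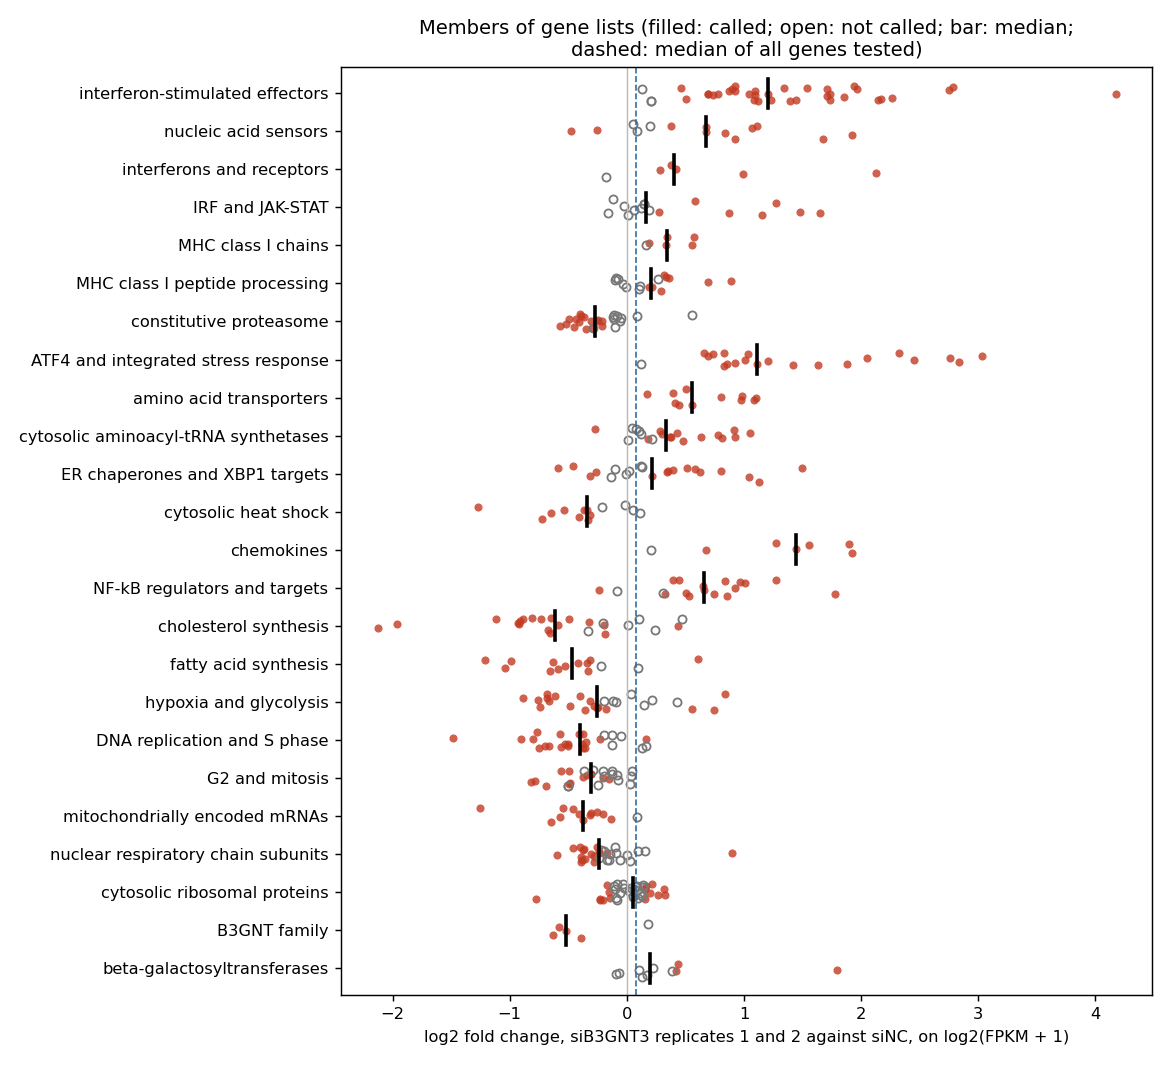
Log2 fold change of each tested member of 24 gene lists, siB3GNT3 replicates 1 and 2 against siNC; filled points passed an adjusted p of 0.05, open points did not, bars are list medians and the dashed line is the median of all genes tested (0.07). B3GNT3 is left out. Interferon-stimulated, ATF4 and chemokine genes lie to the right, and cholesterol, S phase and proteasome genes to the left.

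The largest falls belonged to genes of many unrelated roles and were close to the same size in both low-B3GNT3 libraries. EEF1A1, which encodes the main carrier of aminoacyl-tRNA to the ribosome, stood at 1088, 1109 and 1128 FPKM in siNC, 192 and 189 FPKM in replicates 1 and 2, and 1099 FPKM in the library labelled replicate 3. Both low-B3GNT3 libraries were more than 5-fold below every control and the third was within their range (log2 fold change -2.53, SE 0.043, adjusted p = 2.85e-09). EEF1A1 has many near-identical copies in the genome, so its value depends on how reads were assigned. ITGB1, the beta 1 integrin chain, stood at 441, 432 and 442 FPKM in siNC and 124 and 115 FPKM in replicates 1 and 2, with 424 FPKM in the library labelled replicate 3 (log2 fold change -1.87, SE 0.057, adjusted p = 1.05e-07).

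SLC39A1, a zinc importer, went from 68.2, 67.8 and 69.3 to 18.6 and 17.1 FPKM, with 68.4 FPKM in the library labelled replicate 3 (log2 fold change -1.88, SE 0.059, adjusted p = 1.05e-07). The log2 fold change was -2.02 for RALB, a Ras-like GTPase, -2.27 for RDH11, a retinol dehydrogenase, -1.88 for RGS2, a regulator of G protein signalling, and -1.79 for TGM2, a transglutaminase. It was -1.91 for SIGIRR, a brake on interleukin 1 receptor signalling, and -1.78 for LITAF, an endosomal membrane protein. For CTDSP1, a phosphatase, it was -1.86, for TACC1, a centrosomal protein, -1.97, and for SLC7A7, an amino acid exchanger, -1.82. In each of these 10 genes both values of replicates 1 and 2 were more than 3-fold below the lowest control.

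Lipid synthesis was lower as a group. Cells make cholesterol from acetyl-CoA in a chain of enzymes whose genes are switched on by SREBP2, and fatty acids through SREBP1. Of 24 genes of cholesterol synthesis and its control, 1 was higher (3 after rescaling to a common sum) and 17 lower (median -0.61), against 20.4% lower among all genes. With all 3 libraries as labelled, 13 of the 24 had an unadjusted p under 0.05 and the median was -0.39. DHCR7, an enzyme of a late step, was at -0.93 and LSS (lanosterol synthase) at -0.89, both called. SREBF2, which encodes SREBP2, was at 0.1 (adjusted p = 0.325).

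Of 14 fatty acid synthesis genes 1 was higher (2 after rescaling to a common sum) and 11 lower. SCD, which makes monounsaturated fatty acids, went from 134, 131 and 133 FPKM in siNC to 59.5 and 54.2 FPKM in replicates 1 and 2, with 123 FPKM in the library labelled replicate 3, and FADS2 fell by 1.04. A sterol regulatory element, searched for as TCACNCCAC on both strands, was present in 1 of 18 promoters found for the cholesterol list (5.56%) and 0 of 13 of the fatty acid list, beside 313 of 27305 promoters (1.15%).

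Genes of cell division were lower. Of 26 genes for DNA replication and S phase 1 was higher (0 after median-ratio scaling, 2 after rescaling to a common sum) and 19 lower (median -0.40), and of 27 genes for G2 and mitosis 0 were higher and 13 lower. RRM2, the ribonucleotide reductase subunit that limits the supply of deoxynucleotides, stood at 116, 115 and 117 FPKM in siNC, 42.3 and 39.5 FPKM in replicates 1 and 2, and 119 FPKM in the library labelled replicate 3 (log2 fold change -1.48, SE 0.073, adjusted p = 1.11e-06). CCNB1 was at -0.82 and PLK1 at -0.78, both called. Of 12 tested genes of a list of cell cycle inhibitors and D cyclins, 4 were higher and 6 lower (5 and 5 after rescaling to a common sum). The kinase gene CDK6 was among the higher ones (0.55), a call that ended without siB3GNT3 replicate 2 (0.50). CDKN2B, an inhibitor of the kinases CDK4 and CDK6, went from 2.89, 3.04 and 3.19 to 14 and 14.2 FPKM (log2 fold change 1.90, SE 0.085, adjusted p = 7.22e-07), while CCND1, the cyclin of those kinases, went from 376, 339 and 355 to 224 and 230.4 FPKM and RB1, their main substrate, from 12, 11.7 and 11.7 to 6.39 and 5.81 FPKM. Of 16 p53 targets, 1 of them under 1 FPKM in every siNC library, 8 were higher and 4 lower (5 lower after median-ratio scaling, 1 after rescaling to a common sum), with BTG2 at 1.10.

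Energy metabolism was lower in parts. All but 1 of the 13 mitochondrially encoded mRNAs were called lower, with ND6 at -1.25, COX3 at -0.65 and ND5 at 0.083 (adjusted p = 0.254). After rescaling to a common sum 10 of the 13 were lower and 1 higher. Nuclear genes of the respiratory chain were lower in 16 and higher in 1 of 30 (24 were lower after median-ratio scaling). Of 25 hypoxia and glycolysis genes 3 were higher (6 after rescaling to a common sum) and 15 lower. PKM, which makes pyruvate, was at -0.76, PGK1 at -0.68 and the hexokinase gene HK1 at -0.68, whereas KDM3A, a hypoxia-induced demethylase gene, rose by 0.83. The direction of ribosomal protein genes depended on the scaling, in the sign of the median and in the calls: of 36 tested, 8 were higher and 7 lower on FPKM as deposited, 5 and 12 after median-ratio scaling, and 16 and 2 after rescaling to a common sum. RPL18 stood apart within them, at 617, 584 and 640.0 FPKM in siNC and 372 and 345 FPKM in replicates 1 and 2 (log2 fold change -0.78, adjusted p = 6.17e-06).

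Inflammatory genes were higher. Of 7 chemokine genes tested 6 were higher and 0 lower (median 1.45). CXCL8, which attracts neutrophils, stood at 10.6, 11.1 and 10.3 FPKM in siNC, 44.1 and 42.5 FPKM in replicates 1 and 2, and 11.2 FPKM in the library labelled replicate 3 (log2 fold change 1.93, SE 0.13, adjusted p = 4.72e-06). CCL5, which attracts T cells, went from 2.52, 2.09 and 2.27 to 11.8 and 10.7 FPKM (log2 fold change 1.90, SE 0.088, adjusted p = 8.49e-07), and CXCL3 and CXCL2 rose by 1.56 and 1.45. IL1A went from 6.59, 6.21 and 6.32 to 30.8 and 30.0 FPKM. Of 18 NF-kB regulators and targets, 1 of them under 1 FPKM in every siNC library, 15 were higher and 1 lower (0 after rescaling to a common sum), where RELB (1.77) and NFKB2 (1.28), the pair of the non-canonical pathway, rose and NFKB1 was the lower one (-0.24, adjusted p = 0.035). The call of NFKB1 ends without siNC replicate 1 or 3 or either siB3GNT3 library, with adjusted p from 0.0603 to 0.136.

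Growth factor and stress kinase output was mixed in size. AREG, a ligand of EGFR, stood at 10.5, 9.78 and 9.18 FPKM in siNC, 69.8 and 63.6 FPKM in replicates 1 and 2, and 10.4 FPKM in the library labelled replicate 3 (log2 fold change 2.65, SE 0.16, adjusted p = 2.53e-06). EREG rose by 1.55 and HBEGF fell by 0.52, giving 4 higher and 1 lower among 7 ERBB ligands and receptors tested. Of 20 MAPK output and immediate early genes 13 were higher and 2 lower (3 lower after median-ratio scaling), and 2 of the 20 were under 1 FPKM in every siNC library, with JUN at 1.32 and FOSL1, one of the lower ones, at -0.67. Among 18 autophagy genes 12 were higher and 1 lower, led by GABARAPL1 (1.52) and the initiating kinase gene ULK1 (1.13). Of 17 genes for death receptors and apoptosis, 1 of them under 1 FPKM in every siNC library, 11 were higher and 0 lower (2 lower after median-ratio scaling), with PMAIP1 (NOXA), a BH3-only gene, at 1.42.

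Among ligands of immune cells the shares called were read against 32.5% higher and 20.4% lower among all genes. Of 8 ligands of NK cell receptors 3 were higher and 2 lower (3 lower after median-ratio scaling), a split near that of all genes: RAET1L, a ligand of NKG2D, went from 2.81, 2.32 and 2.14 to 11.6 and 11.1 FPKM (log2 fold change 1.85, SE 0.14, adjusted p = 9.08e-06), ULBP1 rose by 0.64, and MICB, another ligand of NKG2D, fell by 0.89. Of 9 checkpoint and T cell ligands 3 were higher and 2 lower (3 lower after median-ratio scaling), again near the shares among all genes, with NT5E (CD73), which makes adenosine, at 0.76 and TNFSF9 (4-1BB ligand) at -0.74 (adjusted p = 0.00478, or 0.0531 without siB3GNT3 replicate 1).

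Epithelial markers changed without a common direction. KRT17, a keratin of basal and wounded epithelium, went from 7.71, 7.04 and 6.04 to 40.8 and 47.9 FPKM, with 7.17 FPKM in the library labelled replicate 3 (log2 fold change 2.52, SE 0.11, adjusted p = 6.42e-07), and it has near-identical copies in the genome among which reads can be shared. KRT19, the ductal keratin, went from 635, 685 and 656 to 355 and 346 FPKM (log2 fold change -0.91, adjusted p = 1.19e-06). Of 10 keratins, 1 of them under 1 FPKM in every siNC library, 5 were higher and 4 lower, and of 11 junction genes 6 were higher and 1 lower, with the tight junction gene CLDN1 going from 2.30, 2.11 and 2.11 to 15 and 15.2 FPKM. S100P, a calcium-binding protein gene of pancreatic cancer, went from 3.72, 5.49 and 4.66 to 25.8 and 22.9 FPKM (log2 fold change 2.18, SE 0.22, adjusted p = 4.64e-05), whereas 6 of the other 8 S100 genes tested were lower (3 after rescaling to a common sum).

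To ask which of these changes differ from those after another siRNA, siB3GNT3 replicates 1 and 2 were compared directly with the 3 siB4GALT5 libraries. This contrast called 3789 of 10775 genes (35.2%), 1874 higher (17.4%) and 1915 lower (17.8%) with siB3GNT3. Each siRNA's own comparison with siNC uses the same 3 siNC libraries (6271 genes called for siB4GALT5, 58.2%, of which 3794 higher, 35.2%, and 2477 lower, 23%), so their fold changes are given side by side and likeness between them is not used as evidence. Many interferon-stimulated genes were lower with siB3GNT3 than with siB4GALT5: 19 of 37 were called lower and 1 higher (median -0.36). IFNL1 averaged 7.69 FPKM with siB4GALT5, above the 3.91 and 4.14 FPKM of the 2 siB3GNT3 libraries, and IFIT2 rose by 3.09 with siB4GALT5 and by 2.27 with siB3GNT3. IFNL1 was the exception in its own list. Of 6 tested genes for interferons and their receptors, 5 were called higher with siB3GNT3 and 1 lower (median 0.49).

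Of the ATF4 list, 8 of 21 were higher and 1 lower with siB3GNT3 in the direct contrast. GDF15 averaged 8.94 FPKM with siB4GALT5 and was higher with siB3GNT3 by 1.33 (adjusted p = 3.37e-05), while DDIT3 rose by 2.96 with siB4GALT5 and by 2.76 with siB3GNT3 (direct difference -0.20, adjusted p = 0.23). AREG was higher with siB3GNT3 by 0.92 (adjusted p = 0.00185). The differences of GDF15 and AREG rest on setting apart the library labelled replicate 3, in which both genes lay within the siNC range. B4GALT1 averaged 74 FPKM with siB4GALT5, at a direct difference of -0.041 (adjusted p = 0.607). For the MHC class I chains 1 of 6 differed: HLA-F was higher with siB3GNT3 by 0.62.

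Several of the largest falls differed between the 2 siRNAs. EEF1A1 was 1289 FPKM on average with siB4GALT5, a direct difference of -2.75 (adjusted p = 1.33e-09). RGS2, CTDSP1, RDH11, ITGB1 and SLC39A1 were lower with siB3GNT3, at direct differences of -1.92, -2.0, -1.97, -1.86 and -1.82. With the library labelled replicate 3 kept, the calls of RGS2 (-1.30, adjusted p = 0.0611) and RDH11 (-1.24, adjusted p = 0.117) end, and the contrast calls 1716 genes. For ITGB1 and SLC39A1 no value with that library kept is given, so their direct differences rest on setting it apart. It calls 2134 without siB3GNT3 replicate 1 and 2190 without replicate 2. Also lower with siB3GNT3 were AQP1, a water channel gene (-2.29), FURIN, a proprotein convertase gene (-1.96), and IGFBP4, an IGF-binding protein gene (-2.75). Among genes higher with siB3GNT3 in the direct contrast was LMAN2, a cargo receptor of the secretory pathway, which was at -2.47 with siB4GALT5 and at 0.034 with siB3GNT3 (direct difference 2.51).

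**Figure D4:**
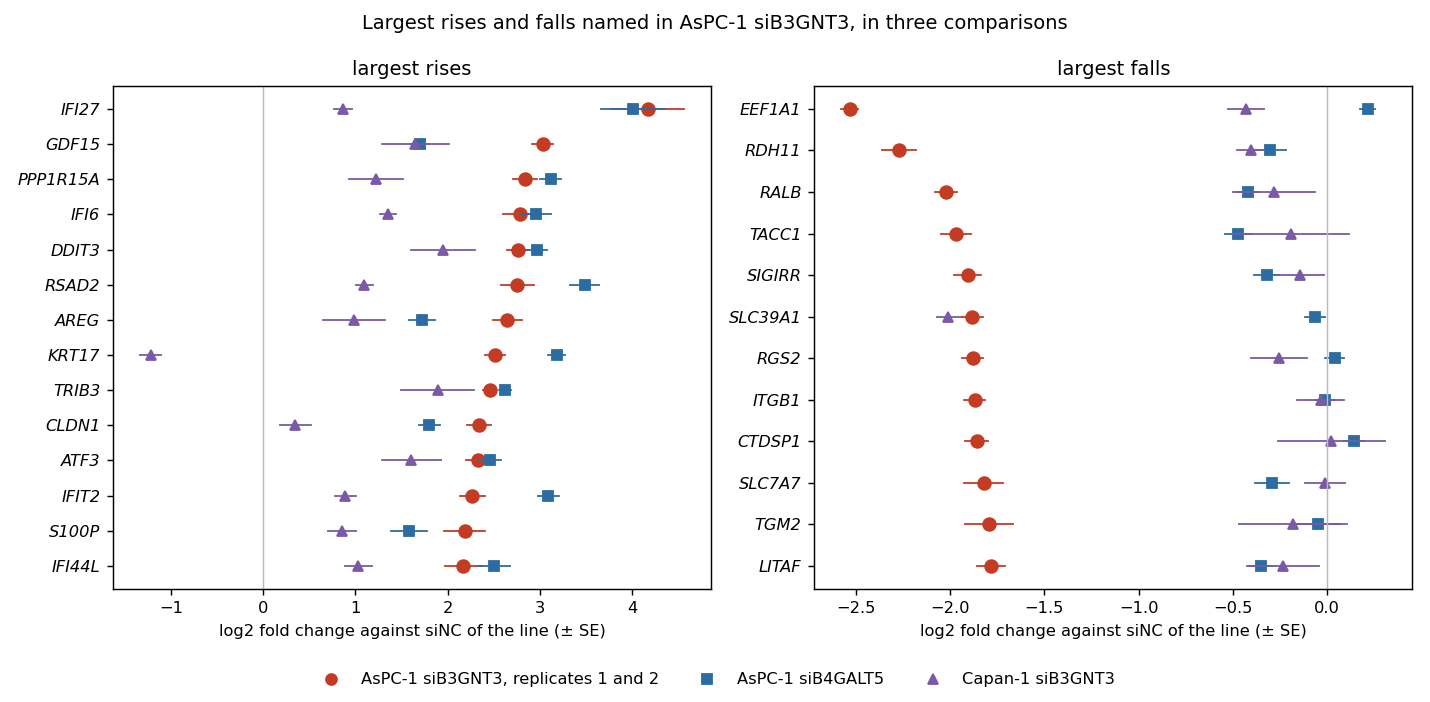
Log2 fold change with its standard error for the genes named in the text among the largest rises (left) and falls (right) in AsPC-1 siB3GNT3 replicates 1 and 2 (circles), beside siB4GALT5 in AsPC-1 (squares, same siNC libraries) and siB3GNT3 in Capan-1 (triangles, own siNC libraries). All points of the left panel lie right of 0 except KRT17 in Capan-1, and in the right panel SLC39A1 is the gene whose Capan-1 point lies beside the AsPC-1 point.

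The same target was lowered in Capan-1, where B3GNT3 stood at 13.3, 13.2 and 13.7 FPKM in siNC and at 1.32, 1.67 and 1.84 FPKM in siB3GNT3. Capan-1 has its own controls, and there 3786 of 11493 genes were called (32.9%), 2152 higher (18.7%) and 1634 lower (14.2%). That count was 5715 without Capan-1 siB3GNT3 replicate 3 and 2069 to 2112 without any 1 of the Capan-1 siNC libraries. The difference between the responses of the 2 lines was tested as an interaction and was called for 4009 of 12236 genes (32.8%), 2319 with the more positive response in AsPC-1 (19%) and 1690 with the more negative one (13.8%). With the library labelled replicate 3 kept, the interaction was called for 1204 genes. Interferon-stimulated genes were higher in 39 of 43 in Capan-1, and the response was more positive in AsPC-1 for 18 and more negative for 5 of 43. IFI27 rose by 0.86 in Capan-1 and by 4.17 in AsPC-1 (difference 3.31, adjusted p = 0.000115, or 2.02 with adjusted p = 0.249 when the library labelled replicate 3 is kept). ATF4 targets were higher in 20 of 22 in Capan-1, and the response differed between lines for 8 of 25, near the 32.8% of all genes.

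Chaperone and cholesterol genes differed between lines. Chaperones of the endoplasmic reticulum and XBP1 targets were higher in 2 and lower in 11 of 21 in Capan-1, and 14 of 21 responded more positively in AsPC-1: HSPA5 was at -0.21 in Capan-1 (adjusted p = 0.122) and rose by 0.81 in AsPC-1, with a difference of 1.02 (adjusted p = 2.68e-05). Cholesterol genes were lower in 5 of 24 in Capan-1, and 12 of 24 had a more negative response in AsPC-1. B4GALT1 rose in both lines, by 0.72 in Capan-1 and by 1.07 more in AsPC-1 (adjusted p = 1.41e-05). The differences between lines for HSPA5, B4GALT1 and these lists rest on setting apart the library labelled replicate 3. No values with that library kept are given for them.

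Of the largest falls in AsPC-1, SLC39A1 also fell in Capan-1, from 121, 117 and 122 FPKM in siNC to 28.4, 28.5 and 30.2 FPKM in siB3GNT3 (log2 fold change -2.01). Its difference between lines was 0.13 (SE 0.079, adjusted p = 0.222). ITGB1 was at -0.034 in Capan-1 (adjusted p = 0.856), a difference of -1.84 between lines (adjusted p = 3.55e-06), or -1.23 (adjusted p = 0.126) with the library labelled replicate 3 kept. EEF1A1 was at -0.43 in Capan-1, RDH11 at -0.41, both called, and RALB at -0.28 (adjusted p = 0.344).

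**Figure D5:**
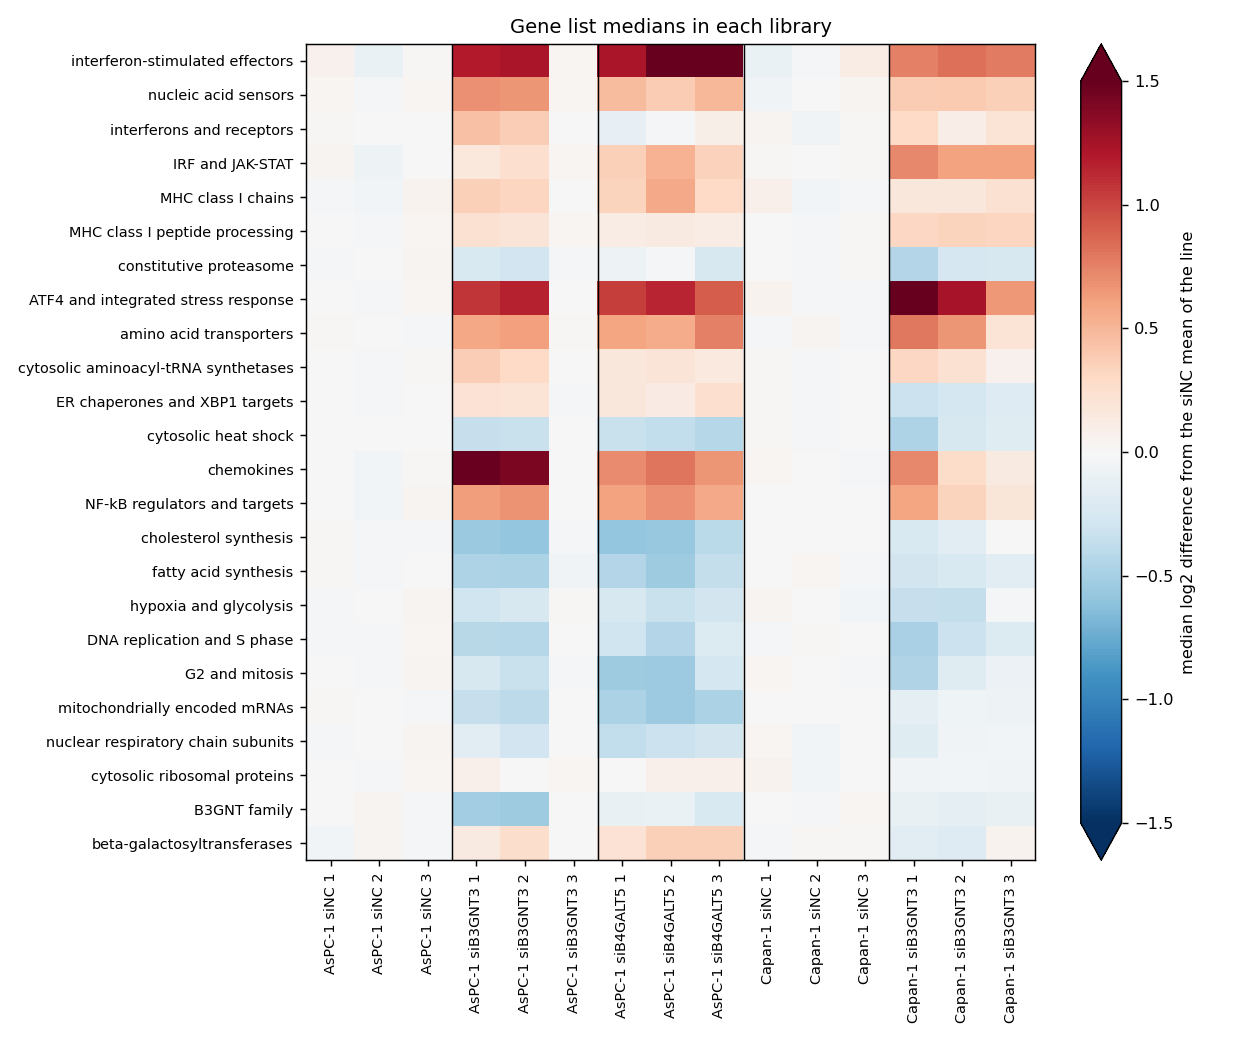
Median log2 difference from the siNC mean of the same line, for the tested members of 24 gene lists (rows) in each of the 15 libraries (columns); colours saturate at 1.5 in either direction, and the B3GNT family row includes B3GNT3. AsPC-1 siB3GNT3 replicates 1 and 2 are alike, the column of the library labelled replicate 3 is close to 0 throughout, and the row of endoplasmic reticulum chaperones is above 0 in the first 2 AsPC-1 siB3GNT3 libraries and below 0 in all 3 of Capan-1 siB3GNT3.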

How the data were processed

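The authors deposited 1 table of FPKM (fragment counts scaled to gene length and library size) for 25503 genes in 15 libraries. Total RNA was purified on columns, per the labels. Bowtie2, RSEM 1.3.1, DESeq2 1.4.5 and GRCh38 are named, with no role or order, per the submitters' processing notes, and no source used here gives the annotation. FPKM hide the read depth, so no count model was used.

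Values were analysed as log2(FPKM + 1) with limma 3.58.1 in R 4.3.3 (intensity trend, Benjamini-Hochberg adjustment over all genes tested), for genes with at least 1 FPKM in at least 3 libraries of the fit. The AsPC-1 comparisons took all 9 AsPC-1 libraries, or 8 with siB3GNT3 replicate 3 set apart, and the interaction 14. The code was tested on simulated data. Deviations of same-numbered siNC and siB3GNT3 libraries from their group means had correlations of -0.02, 0.05 and 0.04. The siB3GNT3 deviations included the library labelled replicate 3 and mostly reflect its distance from the others of its group. These correlations therefore cannot tell whether replicate numbers pair the libraries. Alternatives were another pseudocount, filter, scaling, variance model and set of libraries, and a replicate block.

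The comparison and the 56 gene lists (932 names, 922 in the table, 15 under another symbol) were chosen with earlier results of these data known. Genes named were the target, members of the B3GNT, MHC class I chain, ATF4, interferon and sensor lists, up to 6 members by smallest p of each other list with any member against its majority, and up to 15 genes per direction by fold change (8 in the other contrasts), called, with both siB3GNT3 libraries beyond every siNC library and at least 5 FPKM on average in 1 of the groups. C1GALT1, COL1A1, ND5, PTPRC, SQSTM1, SREBF2 and STAT2 were chosen after their values were seen. KRT7, CDH1, CEACAM5 and CEACAM6 are named as the ductal cancer markers below the filter in AsPC-1. Promoters are RefSeq, GRCh38.p14, and the position of B3GNT3 is from GENCODE. Some genes that meet the rule are not reported here.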

Additional observations from a re-analysis of the deposited data

Results flagged for a closer look

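The genes below are those named here that met the naming rule for the test of the difference between lines: their response to siB3GNT3 differed between AsPC-1 (replicates 1 and 2) and Capan-1, and each value is the AsPC-1 log2 fold change minus that of Capan-1. The difference was 3.74 for KRT17 and 3.31 for IFI27, which rose in both lines, while KRT17 fell in Capan-1. GOLGA2, a Golgi matrix protein gene, rose by 1.45 in AsPC-1 and fell by 0.71 in Capan-1, a difference of 2.16. CALB2, the calretinin gene, rose by 1.24 and fell by 1.10, a difference of 2.34. PPP1R14B, a gene for an inhibitor of protein phosphatase 1, rose by 1.09 and fell by 1.41, a difference of 2.50. YRDC, a tRNA-modifying enzyme gene, rose by 0.71 and fell by 1.35, a difference of 2.06. SLC39A14, a zinc and iron importer gene, rose by 0.41 and fell by 1.85, a difference of 2.26. LAMB3, a laminin beta chain gene, rose by 1.31 in AsPC-1 and was at -0.78 in Capan-1, a difference of 2.09.

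In the other direction, AsPC-1 fell further. The differences were -2.10 for EEF1A1, -1.88 for CTDSP1, -1.87 for RDH11, -1.84 for ITGB1, -1.81 for SLC7A7, -1.78 for TACC1 and -1.76 for SIGIRR. All 15 differences rest on setting apart the library labelled replicate 3. With it kept, 8 of them missed the threshold: IFI27 and the 7 negative ones, with adjusted p from 0.119 (SLC7A7) to 0.249 (IFI27).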

How the results depend on the processing

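Setting aside 1 library decided whether any gene was called. With all libraries as labelled the count was 0 under each alternative but these: 3 without the filter (all under 1 FPKM), and 0 to 5697 when 1 library was left out, the highest being without siB3GNT3 replicate 3. With that library apart the count was 5697, and it was 4071 to 6700 over the other libraries left out, 5569 without the filter, 4276 with a filter of 5 FPKM, 5643 with median-ratio scaling, 6030 with a common sum, 6533 with only siB3GNT3 and siNC in the fit and 5470 with a replicate block. The labels do not say that same-numbered libraries belong together, so the block rests on an assumption. Where leaving out a library left 1 siB3GNT3 library, its spread was taken from the other groups. In the contrast with siB4GALT5 the count was 3789, 1716 with replicate 3 kept, and 2134 to 4865 when 1 library was left out. In Capan-1 the count was 3786, and 2069 to 5715 when 1 library was left out, the lowest without a siNC library (2069, 2083 and 2112) and the highest without siB3GNT3 replicate 3. The interaction was called for 4009 genes, 1204 with replicate 3 kept and 2839 to 5036 when another library was left out. FPKM limit what can be said of low genes, since the depth is unknown.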

Other observations

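Other gene groups changed in the 2 AsPC-1 libraries with low B3GNT3. Of 12 tested genes of the histone list 7 were higher and 2 lower, with H2BC5 rising by 1.98 and H1-2 by 1.45. The lower ones were H2AX and SLBP, which is not itself a histone gene. Of 5 metallothionein and zinc genes tested 4 were higher. TGF-beta targets split, with 4 of 13 higher and 6 lower: LTBP2, which binds microfibrils, rose by 1.19 and PMEPA1, a feedback inhibitor, by 1.03, while ID1 went from 106, 113 and 111 FPKM in siNC to 53.9 and 58.5 FPKM in replicates 1 and 2 and ID3 fell by 0.72. In the redox list 5 of 23 were higher and 9 lower, and PRDX1, a peroxiredoxin of the cytosol, fell by 1.10 while PRDX4, that of the endoplasmic reticulum, rose by 1.07.

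The next 5 lists, and the genes named from them, were chosen after values were seen. Of 14 circadian factors 13 were higher and 0 lower in AsPC-1, against 32.5% of all genes, where 3 were under 1 FPKM in every siNC library. NR1D1, the REV-ERB alpha gene, went from 7.09, 7.39 and 6.15 FPKM in siNC to 29 and 34.5 FPKM in replicates 1 and 2, with 7.08 FPKM in the library labelled replicate 3 (log2 fold change 2.06, SE 0.15, adjusted p = 8.05e-06). In Capan-1 3 of 13 circadian factors were higher and 1 lower, and the response was more positive in AsPC-1 for 12 of 14. Among 12 Ras-like GTPases 0 were higher and 7 lower, and 9 were lower than with siB4GALT5.

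Among 13 integrin genes, 1 of them under 1 FPKM in every siNC library, 5 were higher and 4 lower (7 lower after median-ratio scaling), with a median whose sign depends on the scaling. ITGB8 rose by 1.24 and ITGB4, the hemidesmosome chain, by 0.83, while ITGB1 fell. Among 9 laminin and collagen IV genes 3 were higher and 3 lower, with LAMB3 at 1.31 and LAMA3 at -0.73, both called. Of 11 SLC39 zinc importers 4 were higher and 4 lower (2 after rescaling to a common sum). The integrin, laminin and SLC39 counts are to be read beside 32.5% higher and 20.4% lower among all genes.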
